A study of Mus musculus with 4 samples.

Results

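Interleukin-33 (IL-33), the receptors of the IL-1 family and their shared adaptor were followed in mesenchymal stem cells (MSCs) of leukemic bone marrow. The 8 genes are *Il33*, *Il18* and *Il1b* (ligands), *Il1r1*, *Il1rl1*, *Il1rl2* and *Il1rap* (receptor chains) and *Myd88* (adaptor), found by symbol among 17457 genes listed. They were proposed with their values in L-MSCs (leukemia-associated MSCs) and control MSCs in view, so that their differences between the groups are given as a description, with no test. RNA-sequencing covered 2 libraries of control MSCs and 2 of L-MSCs, each from cells pooled over 4 to 7 female C57BL/6J mice that were injected at 7 to 9 weeks of age. L-MSCs came from mice given 1000 BCR-ABL1+ pre-B acute lymphoblastic leukemia cells, a single line (PER-M60) carrying a retrovirus for BCR-ABL1 and mCherry, and killed with a high leukemia burden, and control MSCs came from mice given phosphate-buffered saline. In both groups the cells were sorted from digested long bones, after flushing of the marrow, as CD45-, TER119-, CD31-, Sca-1+ and PDGFRα+ cells. RNA was extracted after the sort and amplified from low input, and the deposited files keep no read depth.

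IL-1 family cytokines bind a specific receptor chain, and an accessory chain then joins it. That chain is IL1RAP for IL-1, IL-33 and IL-36, and IL18RAP for IL-18. The intracellular domains of the pair recruit MYD88, which passes the signal through IRAK kinases and TRAF6 to NF-κB and MAP kinases. IL-33 is held in the nucleus of stromal, endothelial and epithelial cells and acts when it is released from damaged cells, whereas IL-1β and IL-18 are made as precursors that caspase-1 cleaves. The ST2 receptor for IL-33, encoded by *Il1rl1*, is best known on mast cells, regulatory T cells and group 2 innate lymphoid cells (ILC2).

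The libraries held between 13623 and 14704 genes above 0, and their values are FPKM (fragments corrected for transcript length and for library size), which allow levels to be compared between genes. Of the sort antigens, *Pdgfra* ranged from 66.8 to 93.0 FPKM and *Ly6a*, encoding Sca-1, from 1056 to 1985, while *Ptprc*, encoding CD45, was at most 0.02 and *Pecam1*, encoding CD31, at most 0.93. Of 6 MSC and fibroblast markers, limma called 2 higher and 0 lower in L-MSCs, against 2.43% and 2.65% of all genes tested. These were *Lepr*, the leptin receptor, from a mean of 34.6 to 91.0 and the chemokine *Cxcl12* from 259.6 to 718.3 (log2 differences 1.25 and 1.32, limma adjusted p = 0.0124 and 0.0199). After scaling, 3 of the 6 were higher in both L-MSC libraries without overlap and 0 lower, against 24.8% and 27.2% of all genes tested. The median log2 difference of the 6 was 0.31, against -0.01 over all genes tested. The part of these markers in the results was not tested. Markers of blood cells were low but uneven. The summed FPKM of 11 myeloid markers was 21.5 and 28.5 in control MSCs and 38.3 and 13.9 in L-MSC replicates 1 and 2, that of 4 pan-hematopoietic markers was 1.47 and 0.71 against 4.91 and 0.55, and that of 5 erythroid genes fell from 238.7 and 149.8 to 10.1 and 6.26. In L-MSC replicate 1 the myeloid markers disagreed. *Cd68*, *Fcer1g* and *S100a9* (12.6, 8.27 and 6.43) were above every other library, while *Lyz2* and *S100a8* (7.87 and 2.25) were below both controls. *Coro1a* made up 4.88 of the pan-hematopoietic 4.91 there, with *Ptprc* and *Cd53* at 0. In a bulk sample, fewer cells of a type and less RNA per cell cannot be told apart.

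*Il33* had the highest mean of the 8 genes in control MSCs and ranked behind *Myd88* and *Il1r1* in L-MSCs. It had an FPKM of 37.5 and 65.2 in control replicates 1 and 2 and of 24.5 and 23.6 in L-MSC replicates 1 and 2. Both L-MSC libraries were below both control libraries, and the controls lay farther apart than the L-MSCs. Control MSCs averaged 51.3 ± 19.6 (SD, n = 2), a level 2.13-fold that of L-MSCs, which averaged 24.1 ± 0.651 (SD, n = 2). On the scale of log2(FPKM + 1) after scaling, the difference of L-MSCs from control MSCs was -1.11 (standard error 0.27), and 3.15% of the 11056 genes tested had a difference as low or lower. Since *Il33* was chosen on this contrast, that share is a description and no test. The size rested on control replicate 2, since the log2 difference was -0.75 without it and -1.50 without control replicate 1. *Il33* lies on chromosome 19 of GRCm38.p6 from 29925113 to 29960718 on the plus strand, and the RefSeq annotation gives it a pair of transcription starts, 20.7 kb apart. The 250 bases before each start are shown because the deposited value sums over the transcripts of both, so that it does not say which start the lower level concerns. The upstream window is chr19:29924863-29925112 and the downstream window is chr19:29945540-29945789.
Il33 upstream start: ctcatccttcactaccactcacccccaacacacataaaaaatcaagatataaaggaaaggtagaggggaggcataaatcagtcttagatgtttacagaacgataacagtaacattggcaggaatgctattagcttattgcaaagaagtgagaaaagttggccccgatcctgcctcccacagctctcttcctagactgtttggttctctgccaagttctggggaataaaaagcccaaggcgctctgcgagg
Il33 downstream start: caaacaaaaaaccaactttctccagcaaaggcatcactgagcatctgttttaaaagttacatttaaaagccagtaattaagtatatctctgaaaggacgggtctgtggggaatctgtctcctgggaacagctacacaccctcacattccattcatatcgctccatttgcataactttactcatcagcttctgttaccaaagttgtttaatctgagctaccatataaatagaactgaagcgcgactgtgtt
None of the 4 motifs searched on both strands lay in either window, namely kB (GGGA, any 4 bases, CC), the interferon-stimulated response element ISRE (GAAA, any 2 bases, GAAA), the STAT element GAS (TTCNNNGAA) and AP-1 (TGANTCA). Among the 17320 such windows of listed genes, 21.7%, 2.7%, 6.11% and 5.27% held them, in that order, and a window without a match says only that these letters were not there.

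**Figure D1:**
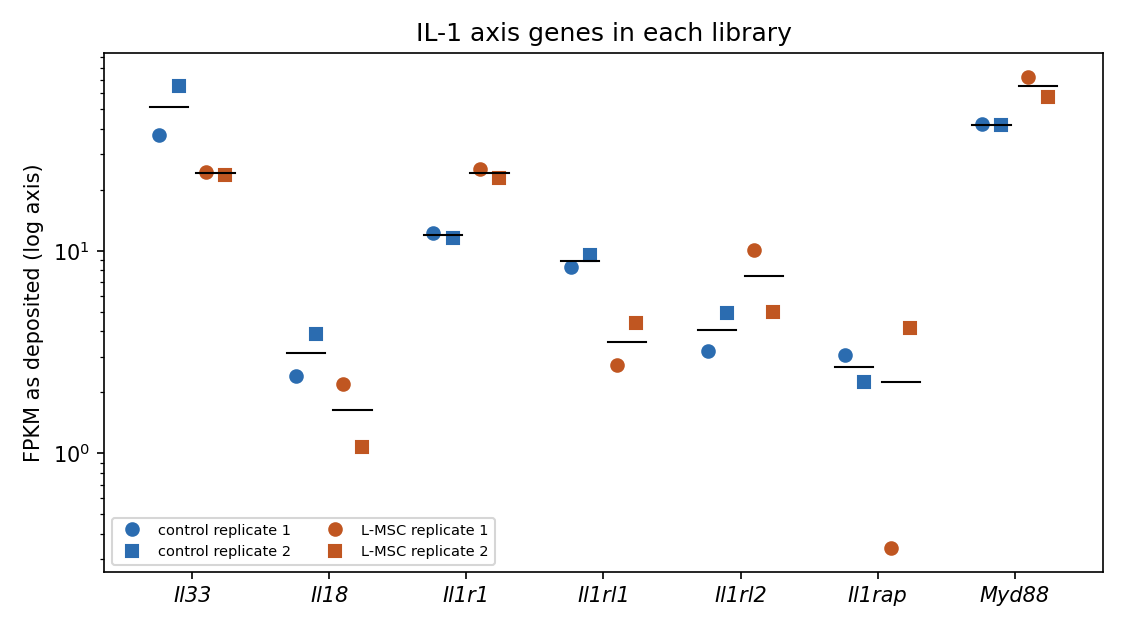
FPKM (log axis) of 7 of the 8 genes in each library, with control MSCs in blue, L-MSCs in orange, circles for replicate 1, squares for replicate 2 and a line at each group mean. *Il33*, *Il18* and *Il1rl1* are lower in both L-MSC libraries, *Il1r1* and *Myd88* are higher, and *Il1rap* stands at 0.34 in L-MSC replicate 1 against 4.15 in replicate 2 (*Il1b*, at 0 in 3 libraries, is not drawn).

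*Il1rl1*, the receptor gene for IL-33, was lower in L-MSCs together with its ligand. Its FPKM was 8.29 and 9.49 in control replicates 1 and 2 and 2.72 and 4.4 in L-MSC replicates 1 and 2. The groups did not overlap, and each L-MSC library was below 5 FPKM while each control library was above 8. The means were 8.89 ± 0.849 (SD, n = 2) and 3.56 ± 1.19 (SD, n = 2), 2.50-fold higher in control MSCs, and the log2 difference was -1.23 (standard error 0.31), a value that 2.47% of the genes tested reached or passed downward. As for *Il33*, the share is that of a gene chosen on this contrast and is no test. With 1 library left out the log2 difference stayed between -1.47 and -0.98. The gene makes a membrane receptor and a shorter secreted form that binds IL-33 as a decoy, and the deposited value does not separate them. *Il1rl1* lies on chromosome 1 from 40404864 to 40465418 on the plus strand. Its annotated starts with a window in the RefSeq table are 10.1 kb apart, and the 250 bases before each are shown for the same reason as those of *Il33*, from chr1:40429320-40429569 and chr1:40439379-40439628.
Il1rl1 upstream start: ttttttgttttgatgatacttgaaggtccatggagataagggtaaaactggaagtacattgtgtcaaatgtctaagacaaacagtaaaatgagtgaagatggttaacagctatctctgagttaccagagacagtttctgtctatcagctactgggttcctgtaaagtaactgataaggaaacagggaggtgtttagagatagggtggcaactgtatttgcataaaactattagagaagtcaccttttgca
Il1rl1 downstream start: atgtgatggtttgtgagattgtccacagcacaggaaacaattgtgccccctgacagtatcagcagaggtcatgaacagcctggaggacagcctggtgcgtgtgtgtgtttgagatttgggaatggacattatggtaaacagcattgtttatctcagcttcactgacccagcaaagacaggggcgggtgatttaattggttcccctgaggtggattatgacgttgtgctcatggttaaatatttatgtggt
Neither window held any of the 4 motifs. Mast cells and ILC2 carry ST2, and their markers were low in these libraries. The summed FPKM of the 4 listed of 6 such markers was 0.61 and 0.03 in control MSCs and 2.16 and 0.72 in L-MSCs. The mast cell protease *Mcpt4* and the IL-7 receptor *Il7r* were at 0 in all 4 libraries. *Kit*, the stem cell factor receptor of mast cells, had 0.10 and 0.01 against 1.52 and 0.26, and *Gata3* had 0.51 and 0.02 against 0.64 and 0.46. Markers of regulatory T cells were not looked up, and the part of any such cells in *Il1rl1* was not tested.

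*Il1r1*, the signaling receptor for IL-1α and IL-1β, was higher in L-MSCs. It had an FPKM of 12.3 and 11.6 in control replicates 1 and 2 and of 25.5 and 22.9 in L-MSC replicates 1 and 2. The libraries of each group lay close together and the groups were far apart. The means were 12.0 ± 0.502 (SD, n = 2) and 24.2 ± 1.78 (SD, n = 2), a 2.02-fold higher level in L-MSCs, and the log2 difference was 0.86 (standard error 0.24). It kept between 0.76 and 0.95 with any 1 library left out. Within a library, *Il1r1* had 1.49 and 1.22 times the FPKM of *Il1rl1* in control MSCs and 9.36 and 5.21 times in L-MSC replicates 1 and 2. This ratio of RNA levels restates the opposite directions of the genes, which were chosen on this contrast, and adds no further result.

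*Il1rl2* and *Il1rap*, the other receptor chains, varied more within L-MSCs than between the groups. *Il1rl2*, the receptor chain for the IL-36 cytokines, had an FPKM of 3.20 and 4.91 in control replicates 1 and 2 and of 10.0 and 4.96 in L-MSC replicates 1 and 2. Its second L-MSC library lay just above the higher control as deposited, the groups overlapped after scaling, and the log2 difference of 0.62 (standard error 0.37) became 0.15 without L-MSC replicate 1. *Il1rap*, the accessory chain that the receptors for IL-1, IL-33 and IL-36 all need, had an FPKM of 3.07 and 2.26 in control MSCs and of 0.34 and 4.15 in L-MSCs. The L-MSC replicates lay on either side of the controls and differed by 12.2-fold, a gap on the log2 scale as wide as or wider than that of 99.5% of the genes tested. Its log2 difference of -0.54 (standard error 0.54) went from -1.48 without L-MSC replicate 2 to 0.40 without L-MSC replicate 1, so that no direction can be given. L-MSC replicate 1, with the low *Il1rap*, was also the library with the highest summed myeloid and pan-hematopoietic markers. These markers did not all go the same way, as given above, and their part in this value was not tested.

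**Figure D2:**
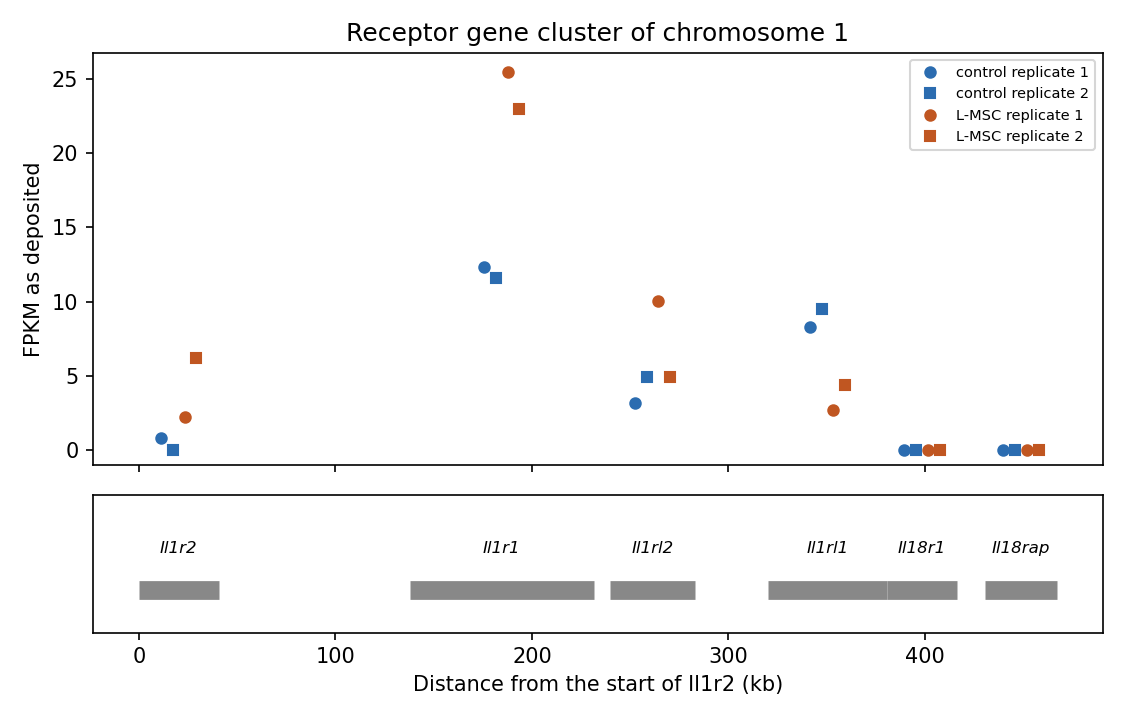
FPKM as deposited of the 6 IL-1 family receptor genes of chromosome 1 (upper panel, points set around the middle of each gene) over their spans in kb from the start of *Il1r2* (lower panel), with control MSCs in blue and L-MSCs in orange. *Il1r1* stands at 22.9 to 25.5 in L-MSCs against 11.6 to 12.3 in control MSCs, *Il1rl1* at 2.72 to 4.4 against 8.29 to 9.49, and *Il18r1* and *Il18rap* are at most 0.05.

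The receptor genes that went in opposite directions are neighbors. Of the 4 receptor chains described above, *Il1r1*, *Il1rl2* and *Il1rl1* lie in this order within 467 kb of chromosome 1 that also hold *Il1r2*, *Il18r1* and *Il18rap*, all on the plus strand. *Il1r1* spans 40222480 to 40316201, *Il1rl2* 40324589 to 40367555 and *Il1rl1*, as given, ends 133 bases before *Il18r1* begins. *Il1r2*, which encodes a decoy receptor that binds IL-1 without signaling, had an FPKM of 0.82 and 0.06 in control replicates 1 and 2 and of 2.28 and 6.23 in L-MSC replicates 1 and 2. Every L-MSC library was above every control library, with a log2 difference of 1.75 (standard error 0.46), but the test was not passed (adjusted p = 0.0544 from limma), and the gene had entered it through the L-MSC libraries alone. *Il18r1* and *Il18rap*, the chains of the IL-18 receptor, did not exceed 0.05 in any library. In the plot of the receptor cluster, *Il1rl2* is the only receptor gene between *Il1r1*, with the higher level in L-MSCs, and *Il1rl1*, with the lower.

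*Il18* and *Il1b*, the ligands that need cleavage, were at low levels. *Il18* had an FPKM of 2.41 and 3.87 in control replicates 1 and 2 and of 2.21 and 1.08 in L-MSC replicates 1 and 2. The groups did not overlap, though the nearest libraries were 2.41 and 2.21, and the log2 difference was -0.72 (standard error 0.37). Its span on chromosome 9, from 50554700 to 50581841, overlaps those of *Bco2* and *Tex12*, and without known strand counting reads in the shared stretches cannot be assigned. The spans of *Il33*, *Il1rl2*, *Il1rap* and *Il1b* also overlap another annotated gene (*Gm41832*, *Gm17970*, *Gm20319* and *Il1bos*), with the same limit. *Il1b* was listed at 0.03 in control replicate 2 and at 0 in the other libraries, was not tested, and was the single gene of the 8 that did not pass the filter on low values, which asked 2 or more of the libraries to reach an FPKM of 1. Both L-MSC libraries, which had more *Il1r1*, thus listed this ligand of the receptor at 0. The paper gives the clean reads per sample as a range, but counts per gene are not kept, so no upper limit was set.

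*Myd88*, the adaptor of these receptors and of most Toll-like receptors, was higher in L-MSCs, where it had the highest mean of the 8 genes. It had an FPKM of 42.3 and 41.6 in control replicates 1 and 2 and of 72.4 and 57.4 in L-MSC replicates 1 and 2. The controls were nearly equal, and both L-MSC libraries exceeded them. The means were 42.0 ± 0.495 (SD, n = 2) and 64.9 ± 10.6 (SD, n = 2), a 1.55-fold higher level, with a log2 difference of 0.51 (standard error 0.22) that was 0.32 without L-MSC replicate 1. *Myd88* lies on the minus strand of chromosome 9 from 119335934 to 119340018. The 250 bases before its start, chr9:119340019-119340268, are shown because they hold a GAS and an ISRE match that overlap, in capitals.
Myd88: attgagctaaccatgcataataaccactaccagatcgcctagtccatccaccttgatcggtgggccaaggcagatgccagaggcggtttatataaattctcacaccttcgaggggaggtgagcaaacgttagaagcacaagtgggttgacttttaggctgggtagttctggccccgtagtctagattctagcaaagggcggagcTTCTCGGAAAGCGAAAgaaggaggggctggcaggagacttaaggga
The GAS letters run from 46 to 38 bases before the start and the ISRE letters from 40 to 31. Of the 11 windows of the 8 genes, this and the *Il1rap* window, with a kB match from 119 to 110 bases before its start, held any of the 4 motifs. A match describes letters and not a site in use.

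The order of the levels changed between the groups. In control MSCs it was *Il33*, *Myd88*, *Il1r1*, *Il1rl1*, *Il1rl2*, *Il18*, *Il1rap* and *Il1b*, and in L-MSCs *Myd88*, *Il1r1*, *Il33*, *Il1rl2*, *Il1rl1*, *Il1rap*, *Il18* and *Il1b*. Among neighbors in the control order, the libraries of *Il33* and *Myd88*, of *Il1rl2* and *Il18*, and of *Il18* and *Il1rap* overlapped. In L-MSCs, those of *Il1r1* and *Il33* overlapped, as did those of *Il1rl1* and *Il1rap* and of *Il1rap* and *Il18*. After scaling, 2 genes (*Il1r1* and *Myd88*) were higher in both L-MSC libraries and 3 (*Il33*, *Il1rl1* and *Il18*) were lower, 5 of 7 without overlap, against 24.8% higher, 27.2% lower and 52.0% in all among the genes tested. Across all genes, limma called 269 higher (2.43%) and 293 lower (2.65%), 5.08% in all, where the Benjamini-Hochberg adjusted p did not exceed 0.05 and the log2 difference was 1 or more in size. Of the 7 genes tested here, 2 (*Il33* and *Il1rl1*) were within the calls for lower genes and 0 within those for higher ones. Since the genes were chosen on this contrast, nothing is read from that count, which was 1 without control replicate 1, 0 without control replicate 2 or L-MSC replicate 1, and 2 without L-MSC replicate 2.

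**Figure D3:**
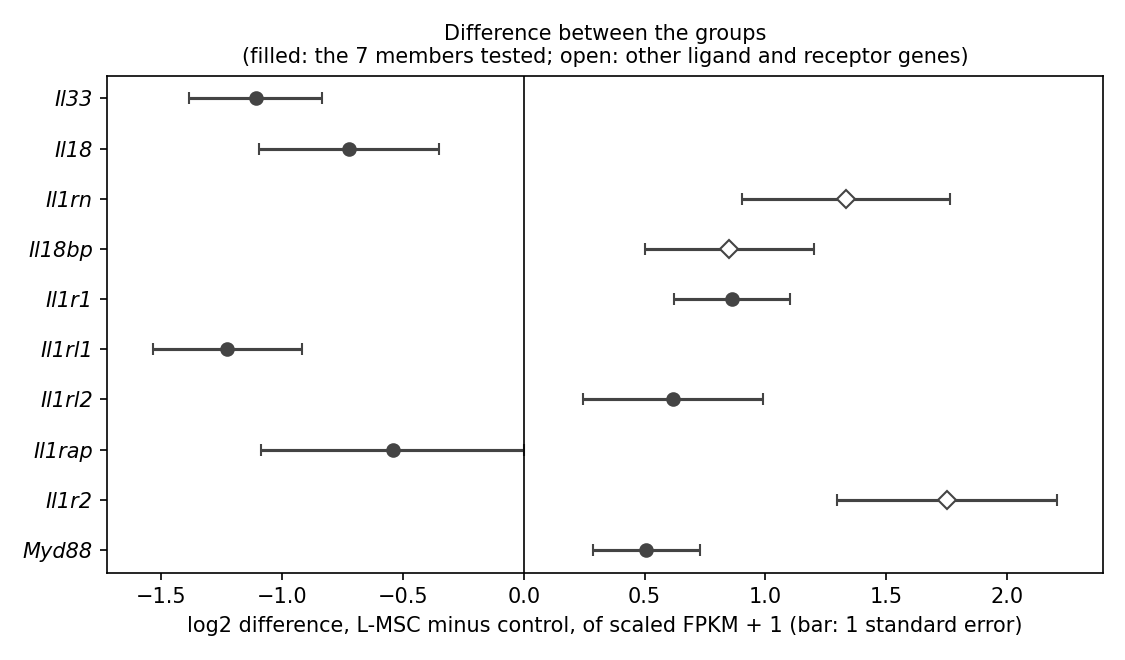
Log2 difference of L-MSCs from control MSCs on the scale of scaled log2(FPKM + 1), with bars of 1 standard error from limma, for the 7 genes tested (filled) and for the other ligand and receptor genes that passed the filter (open). *Il33* at -1.11 and *Il1rl1* at -1.23 lie on the lower side and *Il1r1* at 0.86 and *Myd88* at 0.51 on the higher side, while the bar of *Il1rap* reaches 0.

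Of the soluble inhibitors, *Il1rn* and *Il18bp* were higher in both L-MSC libraries without passing the test. *Il1rn*, the IL-1 receptor antagonist, had an FPKM of 0.38 and 0.84 in control replicates 1 and 2 and of 5.12 and 1.84 in L-MSC replicates 1 and 2, for a log2 difference of 1.33 (limma adjusted p = 0.112, standard error 0.43), and it too had entered the test through the L-MSC libraries alone. *Il18bp*, the secreted binding protein that neutralizes IL-18, had 2.63 and 3 against 8.45 and 4.59, so that its log2 difference was 0.85 (limma adjusted p = 0.198, standard error 0.35). Both inhibitors were highest in L-MSC replicate 1, the library with the highest sum of myeloid markers. These markers did not all go the same way, and their part in these values was not tested. Within a library, the FPKM of *Il18bp* was 1.09 and 0.775 times that of *Il18* in control MSCs and 3.82 and 4.25 times in L-MSCs. This ratio restates the levels of *Il18bp* and of *Il18*, the latter low and chosen on this contrast, and adds no further result. Outside the 8 genes, 11 ligand, inhibitor and receptor genes of the family were listed, and 8 of them were under an FPKM of 0.25 in all libraries. These were *Il1a*, the other IL-1, *Il1f9*, which encodes an IL-36 ligand, *Il1f5* and *Il1f10*, the IL-18 receptor chains, the brain receptor *Il1rapl1* and *Sigirr*, which encodes a brake on the pathway. *Sigirr*, *Il1f5* and *Il1f10* were listed at 0 throughout, and an exact 0 in such a table can also be a failed estimate.

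The counts for the signaling, Toll-like receptor and processing genes were small and are read against all genes tested, of which limma called 5.08% and gave 21.2% an unadjusted p no higher than 0.05. Of 25 genes for kinases, ubiquitin ligases and adaptors below MYD88, 23 were tested and 0 called, with 3 higher and 1 lower at that unadjusted p, near the share over all genes, and their median log2 difference was -0.02 against -0.01 over all genes tested. The most abundant, the ubiquitin-conjugating cofactor *Ube2v1*, had a mean of 105.8 ± 9.77 (SD, n = 2) and 93.8 ± 7.86 (SD, n = 2), and the MAP kinase kinase *Map2k3* had 79.3 ± 25.7 (SD, n = 2) and 73.1 ± 18.7 (SD, n = 2). Of 13 Toll-like receptor genes and their cofactors, 4 were tested and 0 called, with 1 higher at that unadjusted p, too few to set apart from the share over all genes. That gene was *Tlr4*, the lipopolysaccharide receptor, at 5.91 and 5.75 against 17.1 and 12.0 (log2 difference 1.08, adjusted p = 0.0606 from limma), named after its value was seen. *Ly96*, the partner of TLR4, and *Tlr2* had means of 21.0 and 20.2 in control MSCs and of 28.6 and 26.6 in L-MSCs. Of 22 genes of cytokine processing and release, 13 were tested and 0 called, with 2 higher and 2 lower at that unadjusted p, which likewise is no result about the list. *Capn2*, a calpain subunit, had an FPKM of 95.3 and 124.4 against 52.7 and 67.9, a log2 difference of -0.96 (adjusted p = 0.0388 from limma) that missed the fold threshold, and *Ninj1*, which mediates rupture of dying cells, had means of 153.5 and 112.1. The inflammasome sensors *Nlrp3* and *Nlrc4* were listed at 0 in all libraries.

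Of 28 genes that IL-1 induces in stromal cells, which other signals such as TNF also induce, 23 were tested. Limma called 6 higher and 0 lower, against 2.43% and 2.65% of all genes tested, and 17 did not pass the test. The median log2 difference of the 23 was 1.16 against -0.01 over all genes tested. The list was written with earlier results of these data known and so gives no independent evidence of direction. *Lcn2*, an iron-sequestering lipocalin, rose from 5.01 and 8.68 to 70.5 and 22.3 (log2 difference 2.33, limma adjusted p = 0.0212). *Cebpd*, a transcription factor, rose from 2.04 and 3.26 to 14.7 and 21.4 (log2 difference 2.29, adjusted p = 0.00447 from limma), and the serum amyloid *Saa3* and the adhesion molecule *Icam1* rose by 2.19 and 1.69 on the log2 scale. The abundant *Nfkbia*, the inhibitor of NF-κB, overlapped between the groups, with 622.9 and 262.6 against 1075 and 616.3 (log2 difference 0.90, adjusted p = 0.229 from limma), as did the hyaluronan synthase *Has1*, with a log2 difference of -0.14 (adjusted p = 0.893 from limma).

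**Figure D4:**
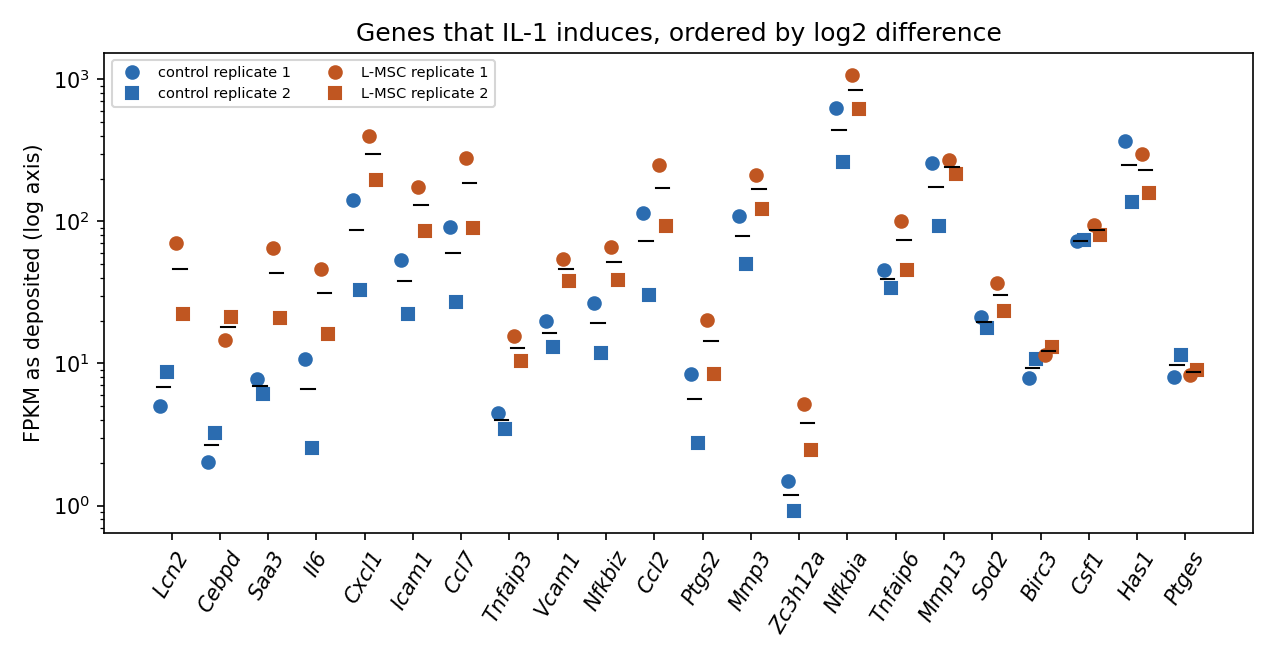
FPKM (log axis) of 22 genes that IL-1 induces, in order of their log2 difference between the groups, with control MSCs in blue, L-MSCs in orange, circles for replicate 1, squares for replicate 2 and a line at each group mean. Replicate 1 stands above replicate 2 within each group for most genes, as for *Nfkbia* (622.9 against 262.6 in control MSCs and 1075 against 616.3 in L-MSCs).

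Replicates differed in these induced genes within each group. Replicate 1 exceeded replicate 2 for 18 of 23 in control MSCs and 20 of 23 in L-MSCs, by a median of 1.12 and 0.86 on the log2 scale, while over all genes tested the shares were 51.0% and 51.1%. Immediate-early genes such as *Fos*, which tissue dissociation also induces, showed the same split, with 10 of 10 and 9 of 10 higher in replicate 1. Between the groups, limma called 3 of 10 higher and 0 lower, against 2.43% and 2.65% of all genes tested. After scaling, 9 of 10 were higher in both L-MSC libraries without overlap, against 24.8% of all genes tested. The median log2 difference of these immediate-early genes was 1.40. Their part in the level of the induced genes was not tested. *Il33* went the other way among control replicates, with 37.5 in replicate 1 against 65.2 in replicate 2, but not in L-MSCs (24.5 against 23.6). *Il1rl1* differed little between control replicates, with 8.29 against 9.49. The number of genes called in the lists around the 8 genes, 6 with all libraries, was 18 without control replicate 1, 2 without control replicate 2, 5 without L-MSC replicate 1 and 19 without L-MSC replicate 2.

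The patterns most like those of *Il33* and *Il1rl1* were looked up among 7106 genes with a mean FPKM of at least 5, by the root mean square distance of centered log2 values over the 4 libraries. Nearest to *Il33* was *S100b*, a calcium-binding protein, with an FPKM of 10.8 and 20.4 in control MSCs and of 6.26 and 6.79 in L-MSCs, at a distance of 0.070. It was followed by *Zswim1*, *Mgll*, a monoacylglycerol lipase, *Ankrd9* and the adhesion receptor *Adgre5*, at up to 0.129. Nearest to *Il1rl1* was *Haus8*, a gene of the spindle complex augmin, with 13.9 and 15.0 against 4.62 and 7.38, at a distance of 0.034. The next were *Plp2*, *Cd34*, a sialomucin of progenitor and stromal cells, *Dolpp1* and *Sbsn*, at up to 0.060. *Cd34* had an FPKM of 350.8 and 426.3 in control MSCs and of 141.1 and 223.1 in L-MSCs. The likeness rests on 4 libraries and is a description.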

How the data were processed

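MSC RNA was amplified with the SMART-Seq v4 kit and sequenced at BGI. The authors deposited FPKM per gene with 2 decimals, and the submitters' processing notes name HISAT2 2.0.4, Bowtie2 2.2.5, RSEM 1.2.8 and the build GRCm38.p6. A deposited log2 column holds the authors' own comparison of the groups and was not used. FPKM are not counts, so count models were not run. The paper gives the clean reads per sample as a range, without the depth of each library.

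Libraries were scaled with median-of-ratios factors (0.957 to 1.05), and log2(FPKM + 1) was tested with limma 3.58.1 (R 4.3.3, variance trend) on genes with an FPKM of 1 or more in 2 or more libraries, with Benjamini-Hochberg adjustment over all 11056. Replicates are biological, each a pool of mice. With 2 against 2, an exact two-sided permutation test cannot go below p = 0.333.

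The 8 genes and all lists were chosen with earlier results of these data known. Named beside them are the listed ligand and receptor genes, up to 4 called genes (largest change) and 2 uncalled genes (highest FPKM) per list, 5 genes nearest in pattern to *Il33* and to *Il1rl1*, sort antigens, and markers read beside a result. Genes outside this rule that were named after their values were seen are *Tlr4*, *Nlrp3*, *Nlrc4* and *Fos*. Promoter windows are from RefSeq for GRCm38.p6, where all 8 genes had at least 1. Alternatives were other scalings (none, TPM, quantile), pseudocounts and filters, limma without trend or robust, a replicate block, and each library left out.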

Additional observations from a re-analysis of the deposited data

How the results depend on the processing

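Against 269 genes higher and 293 lower, limma called 0 and 0 with no filter on low values (2324 genes then had an unadjusted p of at most 0.05, against 2342), and 148 and 128 without the variance trend. The lower count was 194 without scaling and 182 as TPM. Leaving out 1 library, with the lone library assumed to vary like the other group, gave 146 to 464 higher and 152 to 531 lower. Of the other genes in the IL-1 lists, 6 were called, all higher; with no filter this was 0, without the trend 1, and with 1 library left out 2 to 19 (2 to 18 higher and 0 to 1 lower).

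The labels do not say that a replicate number marks a shared day or batch, and with 2 pairs the data cannot settle it. The correlation of same-numbered deviations was 0.101 over all genes, while the induced and immediate-early genes were mostly higher in replicate 1 of both groups. A replicate block gave 509 higher and 438 lower genes and 17 of the other IL-1 genes, all higher.

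Other scalings and pseudocounts gave log2 differences of -1.14 to -1.01 for *Il33*, -1.43 to -1.14 for *Il1rl1*, 0.86 to 0.96 for *Il1r1*, 0.51 to 0.68 for *Myd88* and -1.10 to -0.47 for *Il1rap*, while other filters, the trend, robust fitting and the block leave these values as they are by construction. With 1 library left out, *Il33* became -1.50 without control replicate 1 and *Myd88* 0.32 without L-MSC replicate 1, and *Il1rap* alone of the 7 genes changed sign, to 0.40 without L-MSC replicate 1. The cause was not tested. *Il33* and *Il1rl1* together gave 2 calls, but 0 without scaling, as TPM, with a pseudocount of 0.1, with no filter and without the trend, and 1 with quantile normalization or a pseudocount of 0.5. The lack of counts per gene limits the low values, *Il18*, *Il1rap* and *Il1b* above all.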
